A study of Mus musculus with 18 samples.

Results

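The comparison described here sets naive CD4 T cells that over-expressed miR-24 against naive CD4 T cells that over-expressed miR-23. It covers 10482 of the 23953 gene rows of the deposited table, those at 1 RPKM (reads scaled to transcript length and library size) or more in at least 3 of the 6 libraries compared, and 6 of the 18 libraries of the study. The miR-24 Tg group and the miR-23 Tg group had 3 libraries each, from C57BL/6 mice in which a single member of the miR-23, miR-27 and miR-24 family was over-expressed in T cells. The other 12 libraries came from wild-type mice (WT), cluster Tg mice with T cell over-expression of the whole cluster, miR-27 Tg mice, and DKO mice that lacked both copies of the cluster in T cells, with 3 libraries each. All cells were FACS-sorted as CD4+CD25-CD62Lhi, and total RNA with the small RNAs kept was sequenced on an Illumina HiSeq instrument. Neither the promoter behind each transgene nor the number of animals per library is stated by the labels, and the p-values therefore reflect only how much the libraries of a group varied, which may partly be technical variation.

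A microRNA guides the silencing machinery to messenger RNAs through its seed, the bases next to its 5′ end, which pair with matching sites, mostly in 3′ untranslated regions (3′ UTRs). Paired messengers are translated less and decay faster. MiR-23, miR-27 and miR-24 are cut from 1 precursor transcript. In T cells the cluster is known for restraining effector differentiation, with members that have targets of their own.

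The mature sequences, from RefSeq on build GRCm38.p6, show that the seeds of the 3 microRNAs differ. The seed (bases 2 to 8) is in capitals and is written 5′ to 3′. All 3 lie on the plus strand of chromosome 8, miR-24-3p at 84208875 to 84208896, miR-23a-3p at 84208563 to 84208583 and miR-27a-3p at 84208727 to 84208747.
mmu-miR-24-3p: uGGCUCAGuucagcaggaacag
mmu-miR-23a-3p: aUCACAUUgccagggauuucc
mmu-miR-27a-3p: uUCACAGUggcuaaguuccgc
An 8-base match in an mRNA pairs with the seed and carries an A opposite base 1. On the DNA letters of the transcript strand it is CTGAGCCA for miR-24, AATGTGAA for miR-23 and ACTGTGAA for miR-27, so the 3 seeds call for different sites.

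The hairpin rows matched the labels. Mir24-2, the hairpin of miR-24 in the a copy of the cluster, stood at 13888, 49237 and 21686 RPKM in miR-24 Tg replicates 1, 2 and 3 and at 139.8, 0 and 61.4 RPKM in miR-23 Tg replicate 1, column 3 and column 4. Mir23a showed the opposite, with 74236, 69232 and 64024 RPKM in miR-23 Tg and 0, 382 and 96.7 RPKM in miR-24 Tg. The groups did not overlap at either hairpin, and each over-expressing group was also far above the WT libraries. The log2 difference was 10.22 (SE 1.84, limma adjusted p = 0.0199) for Mir24-2 and -11.01 (SE 2.11, adjusted p = 0.0224) for Mir23a, while the exact two-sided permutation p of 3 libraries against 3 was 0.1 for both, the smallest it can be. The limma call for Mir23a was lost when miR-23 Tg columns 3 and 4 were averaged (adjusted p = 0.0752). It was also lost without miR-23 Tg replicate 1 (adjusted p = 0.0567), column 3 (0.0703) or column 4 (0.0804) and without miR-24 Tg replicate 3 (0.0610). The call for Mir24-2 was lost without miR-23 Tg column 4 (adjusted p = 0.0599) and without miR-24 Tg replicate 1 (0.0582) or replicate 3 (0.0661). Mir27a, the hairpin of the member that neither group was made to over-express, had 239, 89.3 and 588 RPKM in miR-24 Tg and 235, 170 and 155 RPKM in miR-23 Tg, overlapping groups with a log2 difference of 0.34 (SE 0.65, adjusted p = 0.736). These are values of hairpin rows, and mature microRNAs were not measured separately.

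**Figure D1:**
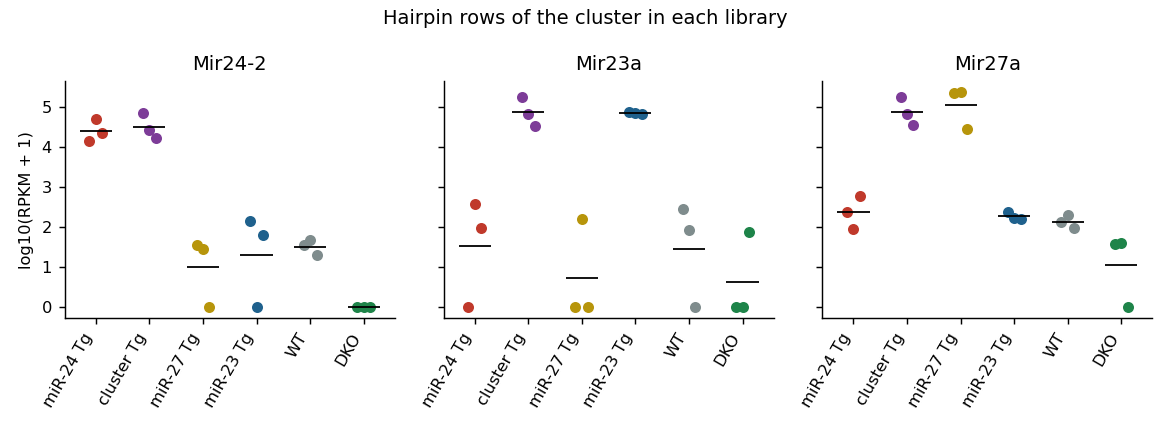
Hairpin rows Mir24-2, Mir23a and Mir27a on a log10(RPKM + 1) axis, by genotype; each point is a library and each bar the mean of 3. Cluster Tg is high for all of them, miR-24 Tg for Mir24-2 and miR-23 Tg for Mir23a, while Mir27a differs little between miR-24 Tg and miR-23 Tg.

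Several features of the libraries bear on all that follows. In the header, a pair of the miR-23 Tg columns carry 1 replicate name, so they are called columns 3 and 4, and that they are separate samples is assumed. Across genes, small RNA rows left out, r between them was 0.997, against 0.982 and 0.983 with replicate 1, and 0 values were identical among genes at 1 RPKM or more. Mirlet7a-1, a let-7 hairpin row, was listed at 0 in all 9 libraries of miR-23 Tg, WT and DKO, and stood between 41.4 and 140 RPKM in all 9 of miR-24 Tg, miR-27 Tg and cluster Tg; the labels do not say how these sets of libraries differed in preparation, and any such difference cannot be told apart from the genotype in this comparison. Replicate 1 of miR-24 Tg came from a male (Ddx3y 54.8 RPKM, Xist 0.0160 RPKM), while the other 5 libraries had Xist between 45.8 and 133 RPKM; of 330 X-linked genes, 32 (9.70%) were called higher and 16 (4.85%) lower in miR-24 Tg, against 9.84% and 8.74% of all genes tested. The same replicate held the most B cell and neutrophil RNA, and replicate 2 the most immediate early RNA, as given beside the gene groups. Cd4 (351 to 394 RPKM in miR-24 Tg, 370 to 410 in miR-23 Tg) and Cd3e (267 to 352 against 268 to 352) overlapped between the groups, and both markers of the labelled cell type were high.

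Of the 10482 genes, 1947 (18.6%) differed between the groups at an adjusted p under 0.05 in limma. In miR-24 Tg, 1031 (9.84%) were higher and 916 (8.74%) were lower. The 3 values of each group did not overlap at 4605 genes (43.9%). The differences were mostly small: 198 of the called genes reached a log2 difference of 1, 150 of them higher in miR-24 Tg and 48 lower. The median standard error was 0.11 on the log2(RPKM + 1) scale, which all differences below use and which understates the change of low genes. With the small RNA and haemoglobin rows left out and the libraries rescaled, the split became 1315 higher and 686 lower (65.7% higher, against 53.0%). The number of calls rested on the libraries used. It was 341 (3.25%) with miR-23 Tg columns 3 and 4 averaged (202 or 1.93% higher, 139 or 1.33% lower), 275 without miR-23 Tg column 4, 376 without column 3, 1218 without miR-23 Tg replicate 1, 732 without miR-24 Tg replicate 1 and 608 without miR-24 Tg replicate 3, and 235 genes (142 higher, 93 lower) were called in this fit, with the columns averaged, with all 18 libraries, with 16 libraries and after quantile normalisation. The rule let in 119 genes through the 3 miR-24 Tg libraries alone and 47 through the 3 miR-23 Tg libraries alone; these had to differ in level, and 85 and 29 of them were called. The split of the libraries seen at Mirlet7a-1, with all 9 of miR-24 Tg, miR-27 Tg and cluster Tg above or below the other 9, was met by 215 genes (2.05%), of which 163 were called (129 higher, 34 lower). At the border of the rule, Acot6 passed with 1.0003 RPKM in the lowest of its 3 highest libraries, and Gprasp2 missed with 0.9998.

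The genes most raised in miR-24 Tg relative to miR-23 Tg encode effector and memory T cell products. Ccl5, a chemokine of effector T cells, had 52.8, 26.2 and 26.3 RPKM in miR-24 Tg and 1.45, 2.00 and 2.88 RPKM in miR-23 Tg. The groups were far apart, the WT libraries (0.295 to 3.23 RPKM) lay among those of miR-23 Tg, and the log2 difference was 3.48 (SE 0.31, adjusted p = 0.00441). S100a6, a calcium-binding protein of memory T cells, had 76.8, 23 and 38.0 against 3.31, 4.6 and 3.50 RPKM (log2 difference 3.13, SE 0.41, adjusted p = 0.00930). Anxa2, a calcium-dependent membrane-binding annexin, had 58.8, 43.2 and 47.8 against 7.90, 12.3 and 11.1 RPKM (2.17, SE 0.18, adjusted p = 0.00400). Among the largest differences in this direction were also the coronin Coro2a (log2 difference 2.65), the unconventional myosin Myo1f (2.51), the surface antigen Ly6c2 (2.29), Gprin3 (2.26) and the neuropilin Nrp1 (2.17). All of these were called with columns 3 and 4 averaged as well. S100a4 (2.76), the chemokine receptor Cxcr3 (2.59) and the protease inhibitor Serpina3g (2.23) were not, with adjusted p of 0.0819, 0.0556 and 0.0789. In each gene named here, the lowest miR-24 Tg library lay above the highest miR-23 Tg library. In all of them except Coro2a and Gprin3, the 9 libraries of miR-24 Tg, miR-27 Tg and cluster Tg also lay above all 9 of the other genotypes, the split seen at Mirlet7a-1. Myo1f and Serpina3g reached 1 RPKM in the miR-24 Tg libraries alone.

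The genes most lowered in miR-24 Tg relative to miR-23 Tg included several membrane proteins. Igsf23, an immunoglobulin superfamily member, had 4.62, 4.75 and 6.00 RPKM in miR-24 Tg and 24.2, 32.1 and 29.8 RPKM in miR-23 Tg (log2 difference -2.28, SE 0.14, adjusted p = 0.00192). Kcnmb4, a regulatory subunit of a calcium-activated potassium channel, had 4.98, 5.12 and 4.85 against 24.6, 26.6 and 23.7 RPKM (-2.11, SE 0.07, adjusted p = 0.000197). Cd81, a tetraspanin that partners with surface receptors, had 6.00, 4.50 and 4.21 against 17, 17.2 and 19.5 RPKM (-1.69, SE 0.13, adjusted p = 0.00313). Ttyh3, of a family of chloride channels, had 20.4, 27.9 and 28.3 against 82.2, 82.1 and 84.0 RPKM (-1.67, SE 0.13, adjusted p = 0.00313). For these 4 genes every miR-24 Tg library lay below all the other 15 libraries, and for Cd81 and Ttyh3 the WT libraries (14.9 to 17.8 and 80.8 to 89.5 RPKM) were near those of miR-23 Tg. At Igsf23, and at Tspan9 and Rgs11 given next, all 9 libraries of miR-24 Tg, miR-27 Tg and cluster Tg lay below the other 9, the same split in the lower direction. The tetraspanin Tspan9 (-1.56), the G protein regulator Rgs11 (-1.55), Fam209 (-1.54) and the centrosomal protein gene Cep170b (-1.38) completed the 8 of the 12 that were called with columns 3 and 4 averaged. The transmembrane adaptor Prr7 (-1.64, adjusted p = 0.0565 with the columns averaged), the receptor Gpr83 (-1.60, 0.0529), the TGF-beta co-repressor Tgif2 (-1.53, 0.0815) and Fbxl22 (-1.45, 0.0570) were not. At Tgif2, replicate 1 of miR-23 Tg (37.5 RPKM) was well above columns 3 and 4 (14.5 and 14 RPKM).

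**Figure D2:**
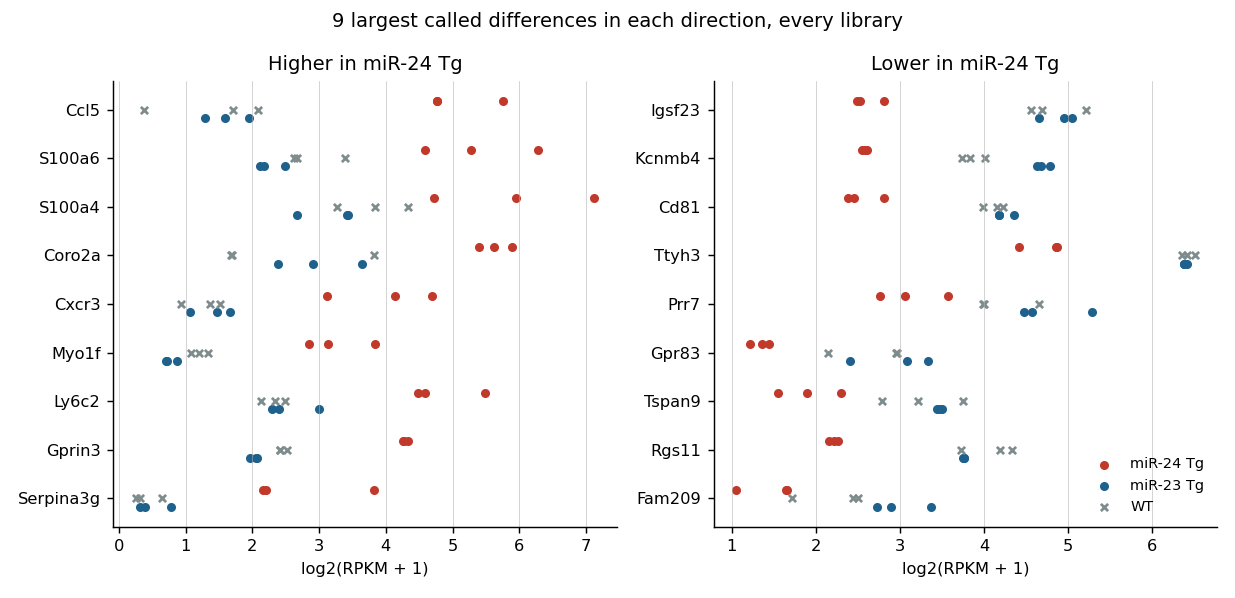
The 9 largest called differences in each direction on a log2(RPKM + 1) axis, with a point for each library of miR-24 Tg (red) and miR-23 Tg (blue) and a cross for each WT library. The miR-24 Tg and miR-23 Tg libraries do not overlap at any of the 18 genes, and WT lies near miR-23 Tg for Ccl5, Cd81 and Ttyh3.

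Values in the other genotypes were set beside those of both groups. Of the 1947 called genes, 277 had all 3 miR-24 Tg libraries outside the range of the other 15 (147 above, 130 below), against 383 (3.65%) of all genes tested. In the same sense 272 had all 3 miR-23 Tg libraries outside the other 15 (122 above, 150 below), against 461 (4.4%) of all genes. The calls therefore held similar numbers of genes in which either genotype was the extreme of the series. The WT mean lay on the miR-24 Tg side of the midpoint for 569 called genes (29.2%, against 45.6% of all genes), and the cluster Tg mean for 1393 (71.5%, against 62.6%). The DKO mean did so for 671 (34.5%, against 47.0%) and the miR-27 Tg mean for 988 (50.7%, against 53.9%). In the split seen at Mirlet7a-1, WT and DKO are on the side of miR-23 Tg, and cluster Tg and miR-27 Tg on that of miR-24 Tg. The part of that split in these shares cannot be told apart from the genotypes. These counts are a description and carry no test.

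Genes of each kind are given with their levels. Klrd1, the CD94 chain of an NK receptor, had 41.9, 35.2 and 39.6 RPKM in miR-24 Tg, 7.19, 9.92 and 9.77 in miR-23 Tg and 9.40 to 14.5 in WT (log2 difference 2.01, SE 0.13, adjusted p = 0.00247). Cst7, a lysosomal protease inhibitor, had 48.5, 31.7 and 33.6 against 8.52, 9.76 and 9.53 RPKM, with WT at 9.69 to 15.8. Tmem141 (1.87) and the claudin Cldn10 (1.70) were likewise above the other 15 libraries in miR-24 Tg, and Ecm1 (-1.32), a secreted matrix protein, was below them. On the other side, Epcam, an epithelial adhesion molecule, had 4.02, 3.94 and 4.37 RPKM in miR-23 Tg, 1.32, 1.07 and 0.935 in miR-24 Tg and 0.878 to 1.01 in WT (-1.28, SE 0.10, adjusted p = 0.00336). Cep170b was also highest in miR-23 Tg (8.07, 7.08 and 7.92 RPKM, WT 2.59 to 3.91), as was the polarity gene Crb3 (1.29, 1.99 and 2.06 RPKM, WT 0.370 to 0.660). Eng, a TGF-beta co-receptor, had 0.473, 0.384 and 0.450 RPKM in miR-23 Tg and 3.3, 5.6 and 4.42 in miR-24 Tg, and Dntt, the terminal transferase of early lymphocytes, had 3.72, 4.63 and 4.66 against 14.3, 16.7 and 15.4 RPKM; both were below the other 15 libraries in miR-23 Tg. At Eng and Dntt the split seen at Mirlet7a-1 was also met, with miR-24 Tg, miR-27 Tg and cluster Tg all above the other 9 libraries. Eng reached 1 RPKM in miR-24 Tg and not in miR-23 Tg, and Crb3 the reverse, so both passed the rule through the group in which they were higher. Icosl, the ligand of the co-stimulator ICOS, was at both extremes, above the other 15 in miR-24 Tg (14.9, 11.1 and 11.3 RPKM) and below them in miR-23 Tg (3.94, 3.07 and 3.42 RPKM).

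Matches to the miR-24 seed were more frequent among the genes that were lower in miR-24 Tg. A 3′ UTR was found for 9766 of the genes (93.2%), taken as the longest of the coding transcripts in GENCODE vM21 (GRCm38). The motif CTGAGCCA was present, on the transcript strand only, in 847 of these UTRs (8.67%). It was present in 125 of the 883 called lower in miR-24 Tg (14.2%) and in 66 of the 980 called higher (6.73%). For AATGTGAA of miR-23 the shares ran the other way and were closer: 683 of all UTRs (6.99%), 81 of those called higher in miR-24 Tg (8.27%) and 40 of those called lower (4.53%). ACTGTGAA of miR-27, over-expressed in neither group, was in 604 of all UTRs (6.18%), 71 of those called higher (7.24%) and 52 of those called lower (5.89%). With columns 3 and 4 averaged the share with a miR-24 match was 19.4% (26 of 134) among the genes called lower and 3.85% (7 of 182) among those called higher. For miR-23 it was then 5.22% (7 of 134) among those called lower and 7.14% (13 of 182) among those called higher. The latter was near the 6.99% of all UTRs, and the miR-27 shares in that fit were the same as those of miR-23. A match is a string in the UTR and does not show a working site.

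The shift over all genes with a match was small. The median log2 difference was -0.06 over the 847 genes with a miR-24 match, 0.01 over the 683 with a miR-23 match, 0.00 over the 604 with a miR-27 match and 0.00 over the 5817 genes with none of the 3 seeds even at 7 bases. Against the mean of miR-23 Tg, the median of the miR-24 set was -0.08, -0.07 and -0.05 in miR-24 Tg replicates 1, 2 and 3, and that of the genes without matches was 0.00, 0.01 and 0.00. All 3 libraries thus lay on the same side. Relative to WT, genes with a miR-24 match had a median of -0.04 in miR-24 Tg and 0.02 in miR-23 Tg, whereas genes with a miR-23 match had 0.03 in miR-23 Tg and 0.03 in miR-24 Tg. The miR-27 set had 0.04 in miR-24 Tg and 0.04 in miR-23 Tg, and the genes without matches 0.00 and 0.00. Of these medians relative to WT, only that of miR-24 matches in miR-24 Tg was thus below 0. For miR-23 matches in miR-23 Tg the median lay between those of the genes without matches and the miR-27 set. In the split seen at Mirlet7a-1, WT is on the side of miR-23 Tg and not of miR-24 Tg, and its part in these medians was not tested. UTRs with a match are longer (median 2516 bases for miR-24 and 2599 for miR-23, against 716 for genes without one), and the part of UTR length in these medians was not tested. The miR-27 set had a median length of 2581 bases.

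**Figure D3:**
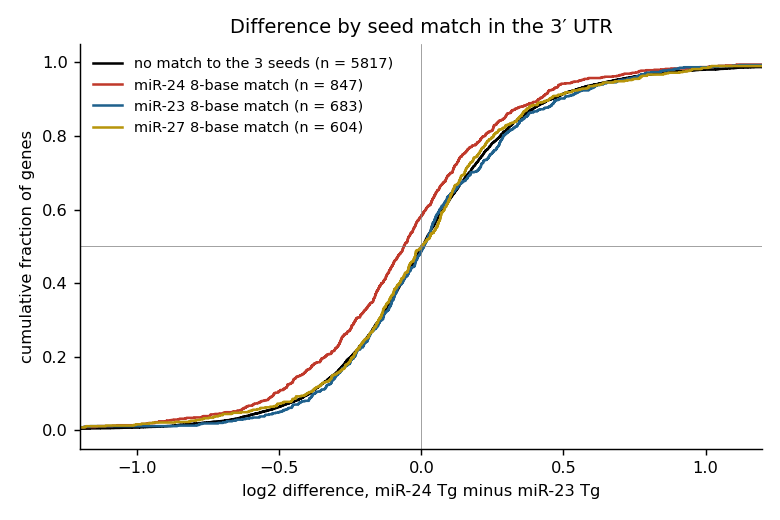
Cumulative fraction of genes by log2 difference (miR-24 Tg minus miR-23 Tg) for genes with an 8-base match to each seed and genes with no match to the 3 seeds. The miR-24 curve lies to the left (median -0.06), and the other 3 lie close together around 0.

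The matches in the genes with the largest differences are given next, each with 14 bases before and 4 after the 8-base match, which is in capitals. The first 3 for each microRNA are the called genes with the largest difference in the direction of that microRNA; of these, Il9r reached 1 RPKM in miR-24 Tg alone. The rest were chosen after their values were seen, from called genes in which both genotypes over-expressing that microRNA (the single transgenic and cluster Tg) lay below the other 12 libraries. The miR-24 matches are in Cd81 (chromosome 7, 143067668 to 143067675, plus strand), Ttyh3 (chromosome 5, 140622411 to 140622418, minus strand), H2afx (chromosome 9, 44335278 to 44335285, plus strand) and Ugcg (chromosome 4, 59222015 to 59222022, plus strand), all GRCm38.
Cd81: gagagttctgcctgCTGAGCCAaacc
Ttyh3: actcctggctgaccCTGAGCCAgcaa
H2afx: cctcacagaaagagCTGAGCCActtc
Ugcg: acattttcatcttaCTGAGCCAgccc
The miR-23 matches are in Gprin3 (chromosome 6, 59352519 to 59352526, minus strand), Il9r (chromosome 11, 32187663 to 32187670, minus strand), Scd2 (chromosome 19, 44305559 to 44305566, plus strand), Rcn1 (chromosome 2, 105387293 to 105387300, minus strand) and Sft2d1, which has a pair of them (chromosome 17, 8327233 to 8327240 and 8327336 to 8327343, plus strand).
Gprin3: cttttaagaaccttAATGTGAAaact
Il9r: atcttaaggtctgaAATGTGAAtaaa
Scd2: tgcccacttaaacaAATGTGAAaaat
Rcn1: aatcaaaaaaagatAATGTGAAcaaa
Sft2d1 first: caaacagcttttgaAATGTGAAtatt
Sft2d1 second: tttttaactttaaaAATGTGAAactt

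The levels of these genes in the other genotypes differed. H2afx, the histone variant that marks DNA breaks, had 8.94, 12.4 and 8.78 RPKM in miR-24 Tg, 8.25, 15.4 and 11.8 in cluster Tg, against 30.7, 25.5 and 25.9 in miR-23 Tg and 21.6 to 25.1 in WT, with a log2 difference of -1.37 (SE 0.15, adjusted p = 0.00658). Its UTR also held an 8-base match to miR-23, not printed above, although the miR-23 Tg libraries all lay above those of WT. Ugcg, which makes the first glycosphingolipid, had 58.0, 79.1 and 61.6 RPKM in miR-24 Tg, 72.6, 84.1 and 84.0 in cluster Tg, 106 to 116 in WT and 169, 137 and 135 in miR-23 Tg (-1.15, SE 0.15, adjusted p = 0.00903). Ttyh3 had 29.3, 48.1 and 42.2 RPKM in cluster Tg. At these 3 genes the miR-24 Tg and cluster Tg libraries all lay below the other 12. At Cd81 they did not, with 6.91, 12.8 and 15.4 RPKM in cluster Tg. Sft2d1, a vesicle transport gene, had 5.17, 5.01 and 4.97 RPKM in miR-23 Tg, 4, 5.26 and 6.47 in cluster Tg, against 10.2, 10.2 and 10.2 in miR-24 Tg and 7.10 to 10.9 in WT (0.89, SE 0.06, adjusted p = 0.00306). Rcn1, a calcium-binding protein of the endoplasmic reticulum, had 5.63, 5.36 and 5.55 RPKM in miR-23 Tg, 5.52, 5.97 and 5.16 in cluster Tg, against 11.1, 10.1 and 10.9 in miR-24 Tg and 9.79 to 11.9 in WT (0.84, SE 0.07, adjusted p = 0.00398). Sft2d1 and Rcn1, which were chosen for that pattern, were low wherever miR-23 was over-expressed. Scd2, a fatty acid desaturase, and Gprin3 were different: cluster Tg (28.8 to 30.7 and 17.6 to 25.0 RPKM) was near miR-24 Tg (28.8 to 39.1 and 18.2 to 19.1 RPKM) and not near miR-23 Tg (10.8 to 12.7 and 2.92 to 3.21 RPKM), although cluster Tg also over-expressed Mir23a. The call for Gprin3 was lost with all 18 libraries in the fit (adjusted p = 0.0693). At Il9r cluster Tg (4.25, 3.60 and 2.45 RPKM) was also near miR-24 Tg (5.95, 1.85 and 3.65 RPKM). It was not near miR-23 Tg (0.441, 0.370 and 0.272 RPKM). The limma call for Il9r was lost with columns 3 and 4 averaged (adjusted p = 0.0721).

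**Figure D4:**
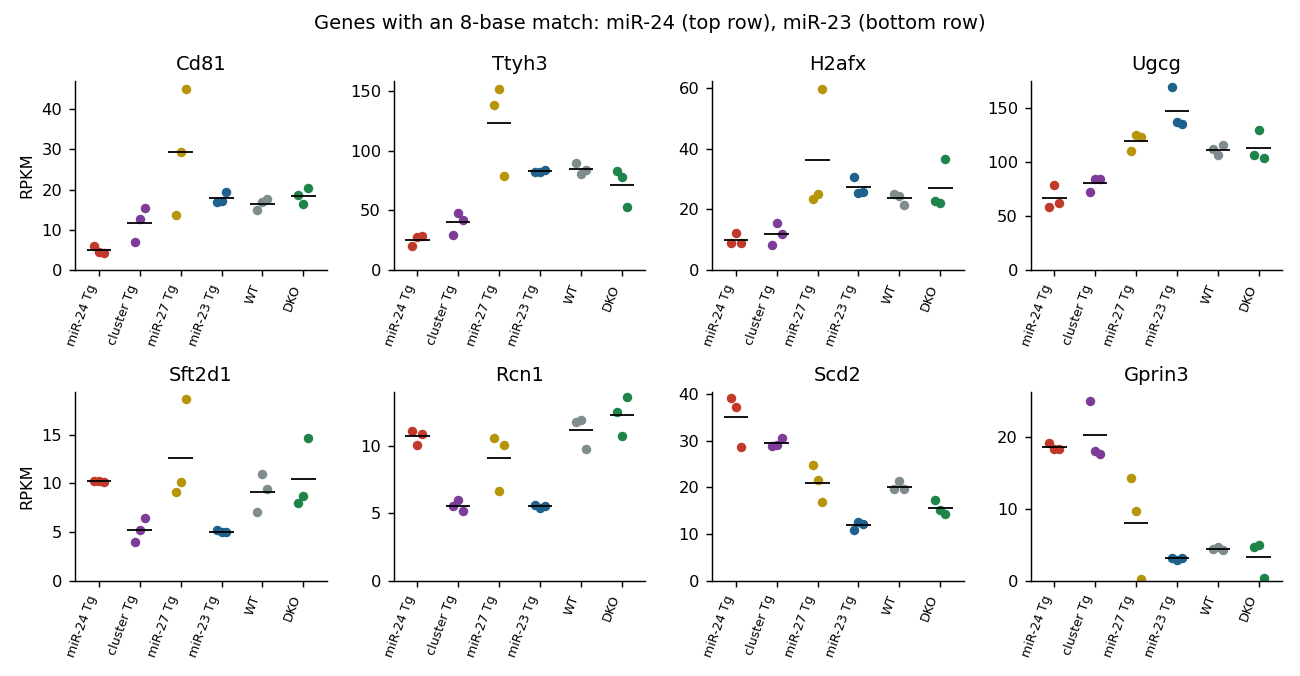
RPKM of 8 genes with an 8-base match to miR-24 (top row) or miR-23 (bottom row) in the 18 libraries, by genotype; points are libraries and bars are means of 3. H2afx and Ugcg are low in miR-24 Tg and cluster Tg, Sft2d1 and Rcn1 are low in miR-23 Tg and cluster Tg, and Scd2 and Gprin3 are high in cluster Tg. H2afx, in the top row, also has an 8-base match to miR-23.

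Over all genes, 164 (1.56%) had the 6 libraries of miR-24 Tg and cluster Tg below the other 12, and 129 of these were called lower in miR-24 Tg. Of the 126 with a UTR, 20 (15.9%) held CTGAGCCA and 43 (34.1%) the 7-base match CTGAGCC, which is in 19.0% of all UTRs. Among all genes called lower in miR-24 Tg that had a UTR, these shares were already 14.2% and 30.7%. For miR-23 Tg and cluster Tg the same pattern was found in 28 genes (0.267%), 17 of them called. Of the 16 with a UTR, 7 (43.8%) held AATGTGAA and 10 (62.5%) AATGTGA, which is in 16.3% of all UTRs. Among all genes called higher in miR-24 Tg that had a UTR, the shares were 8.27% and 18.6%. The miR-23 pattern was thus found in fewer genes, with a larger share of matches among them, and that difference in share was not tested. Above the other 12 libraries, miR-24 Tg with cluster Tg had 156 genes (1.49%) and miR-23 Tg with cluster Tg had 25 (0.239%). In the split seen at Mirlet7a-1, cluster Tg is on the side of miR-24 Tg and not of miR-23 Tg. The part of that split in these counts cannot be told apart from the genotypes. Of the 7 with AATGTGAA, Sft2d1 and Rcn1 had the largest differences, followed by Blcap (0.55), Ssr2 (0.41), Zfp942 (0.34) and Rad17 (0.32). These 4 were not called with columns 3 and 4 averaged (adjusted p = 0.0690, 0.0609, 0.114 and 0.0982).

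Genes named in the literature as targets were counted next. Of 24 tested targets of miR-24, 6 (25%) were called lower in miR-24 Tg and 2 (8.33%) higher, against 8.74% and 9.84% of all genes, with a median log2 difference of -0.19 against -0.01 over all genes. Besides H2afx, the lower ones were the kinase Nlk (16.2, 16.5 and 17.5 against 30.8, 32.4 and 33.2 RPKM, log2 difference -0.90, SE 0.06, adjusted p = 0.00290), the methyl-CpG protein Mbd6 (-0.74), the activin receptor Acvr1b (-0.73), the stress kinase Mapk14 (-0.39) and the cytokine Tgfb1 (-0.33). The calls for Mapk14 and Tgfb1 were lost with the columns averaged (adjusted p = 0.0539 and 0.109). In the UTRs used here, H2afx, Mbd6, Acvr1b and Mapk14 each held CTGAGCCA. Nlk and Tgfb1 held no match to the miR-24 seed, even at 7 bases. Ifng, the Th1 cytokine and a target named in the literature, was in contrast higher in miR-24 Tg (4.02, 11.1 and 3.96 against 0.633, 0.960 and 0.899 RPKM, 1.88, SE 0.36, adjusted p = 0.0224), a call lost with the columns averaged (0.0731). Ifng reached 1 RPKM in the miR-24 Tg libraries alone, so the rule let it in through the group in which it was high, and it also followed the split seen at Mirlet7a-1, as Mapk14 did in the lower direction. The other target of miR-24 called higher was E2f2, also on the cell cycle list. Without Ifng, 1 of 23 targets of miR-24 was called higher and 6 lower. With the columns averaged, 0 were called higher and 4 lower. The targets of miR-27, over-expressed in neither group, had a similar share called lower in the main fit. Of 17 tested, 4 (23.5%) were lower in miR-24 Tg and 1 (5.88%) higher, with a median of -0.12. Averaging the columns left 0 of these 17 called in either direction. Of 23 tested targets of miR-23, 1 was called higher in miR-24 Tg, the TGF-beta mediator Smad3 (0.29), and 1 lower, the signalling adaptor Tab2 (-0.35), with a median of 0.03; 1 of 23 (4.35%) is below the share of all genes in either direction. The NF-kB inhibitor Tnfaip3, on the miR-23 list, had 74.1, 975 and 264 RPKM in miR-24 Tg and 1107, 831 and 920 in miR-23 Tg, and did not pass the test (adjusted p = 0.185).

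Effector and memory genes formed the list with the largest number of members called, although some shorter lists had larger shares. Of 33 tested, 18 (54.5%) were higher in miR-24 Tg and 0 lower in limma (0 lower at an unadjusted p under 0.05), against 9.84% and 8.74% of all genes, with a median log2 difference of 1.16. Besides those named, Il2rb, the interleukin 2 receptor beta chain (81.2, 55.0 and 52.6 against 26, 22.3 and 21.5 RPKM), the cytotoxic granule gene Nkg7 (26.6, 13.1 and 16.8 against 2.60, 3.56 and 3.80 RPKM) and the chemokine receptor Cxcr6 (12.3, 5.93 and 7.14 against 1.64, 1.61 and 1.72 RPKM) were called. The count was 10 with the columns averaged, where 1.93% of all genes were higher, and 15 without miR-24 Tg replicate 1. Without Anxa1 and Klrk1, which reached 1 RPKM in miR-24 Tg alone, it was 16 of 31. At 13 of the 18, Nkg7 and Cxcr6 included, the libraries split as at Mirlet7a-1. Of 13 Th1 genes, 7 (53.8%) were higher, among them the interleukin 18 receptor chains Il18r1 (85.3, 81.8 and 95.0 against 16.8, 23.6 and 23.9 RPKM) and Il18rap (4.37, 2.49 and 3.06 against 0.229, 0.382 and 0.485 RPKM); 2 of the 7 were called with the columns averaged. Il18rap, Ifng and Tbx21 reached 1 RPKM in miR-24 Tg alone, and without them 4 of 10 were called. At 4 of the 7 the libraries split as at Mirlet7a-1, Il18rap and Ifng among them. In a bulk sample, more cells of a type and more RNA per cell cannot be told apart.

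Other T cell programmes moved less evenly. The share of all genes called was 9.84% higher and 8.74% lower. Of 15 Treg genes, 7 (46.7%) were higher and 1 (6.67%) lower: Nrp1 and the Treg factors Foxp3 (15.9, 5.92 and 4.41 against 1.4, 1.84 and 1.60 RPKM) and Ikzf2 (9.65, 4.17 and 5.46 against 1.25, 1.5 and 1.64 RPKM) were higher, while the Treg receptor Gpr83 was lower. The calls for Foxp3 and Ikzf2 were lost with the columns averaged (adjusted p = 0.102 and 0.0645), and 2 of the 15 were then called. At 5 of the 8 called Treg genes, Nrp1, Foxp3 and Ikzf2 among them, the libraries split as at Mirlet7a-1. Of 11 chemokine receptors 5 (45.5%) were higher, including the gut-homing receptor Ccr9 (19.6, 22.3 and 30.6 against 4.70, 8.44 and 8.35 RPKM). Of 14 Tfh genes 3 (21.4%) were higher, including the inhibitory receptor Pdcd1 (15, 5.57 and 8.74 against 1.08, 1.89 and 2.04 RPKM, adjusted p = 0.0615 with the columns averaged), which followed the same split. Of 9 Th17 genes limma called 0, here or with the columns averaged (1 at an unadjusted p under 0.05, and 1 called with all 18 libraries in the fit). Of 30 naive and quiescence genes 5 (16.7%) were lower and 4 (13.3%) higher, shares nearer to those of all genes: the naive T cell factor Tcf7 (445, 524 and 549 against 1011, 878 and 864 RPKM, log2 difference -0.86) and Bach2 (-0.80) were lower, whereas Id3 (74.2, 81.2 and 67.9 against 41.1, 32.9 and 30.2 RPKM, 1.09) and Dapl1 (1.06), also of naive cells, were higher. With the columns averaged, Id3 and Dapl1 kept their calls and Tcf7 (adjusted p = 0.0545), Bach2 (0.0684) and Foxo1 (0.0769) did not.

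Signalling and metabolic lists ranged from shares of calls near or below those of all genes (9.84% higher, 8.74% lower) to larger ones. Of 20 TGF-beta genes 5 (25%) were lower, Acvr1b among them, and 1 (5%) higher (median -0.24), and 1 was called with the columns averaged. Of 40 TCR complex and proximal signalling genes 4 (10%) were lower and 2 (5%) higher; the kinases Lck (424, 416 and 429 against 661, 614 and 595 RPKM) and Fyn (123, 125 and 127 against 196, 167 and 170 RPKM) were lower, and none of the 6 kept its call with the columns averaged (adjusted p = 0.0594 for Lck and 0.0560 for Fyn). Of 29 cholesterol and fatty acid genes 9 (31.0%) were higher and 3 (10.3%) lower, with Scd2 and the sterol enzyme Sqle (17.4, 14.9 and 13.8 against 8.87, 8.33 and 7.46 RPKM) among 5 higher with the columns averaged, where the share of all genes was 1.93%. Of 34 apoptosis genes 3 (8.82%, near the share of all genes) were higher, the death agonist Bid (15.3, 13.1 and 13.7 against 7.57, 8.36 and 8.67 RPKM, log2 difference 0.71) with the columns averaged as well. Of 34 cell cycle genes 5 (14.7%) were lower and 2 (5.88%) higher. E2f1, called lower, reached 1 RPKM in miR-23 Tg alone, and without it 4 of 33 were lower. H2afx and the cyclin Ccnd3 (75.4, 77.4 and 78.2 against 127, 126 and 131 RPKM) kept the call with the columns averaged. Of 23 glycolysis genes 5 (21.7%) were lower and 2 (8.70%) higher, of which Ldhb (37.2, 40.3 and 36.4 against 19.1, 20.3 and 20.9 RPKM) kept its call. Of 37 interferon response genes 8 (21.6%) were higher in miR-24 Tg, none of them with the columns averaged. Ifi44 reached 1 RPKM in miR-24 Tg alone, and without it 7 of 36 were called. Of 47 ribosomal protein genes 1 was called. Of 40 respiratory chain genes limma called 0, here or with the columns averaged (5 at an unadjusted p under 0.05).

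Immediate early genes had the lowest median of any list (-0.65 over 33 tested) with 1 call, the phosphatase Dusp2, which was higher. Their summed level was 3134, 11145 and 4335 RPKM in miR-24 Tg replicates 1, 2 and 3 and 9288, 7644 and 8305 RPKM in miR-23 Tg. Replicate 2 of miR-24 Tg stood apart from replicates 1 and 3. Without replicate 2, 14 of the 33 were called lower and 2 higher. Over all genes, that fit called 933 lower and 1005 higher. The 14 calls rested on leaving out that library: 0 of the 33 were called in either direction without replicate 1, and 0 without replicate 3. The heat and dissociation stress list followed the same order in miR-24 Tg (1673, 4597 and 1585 RPKM), and its part in the immediate early values was not tested.

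**Figure D5:**
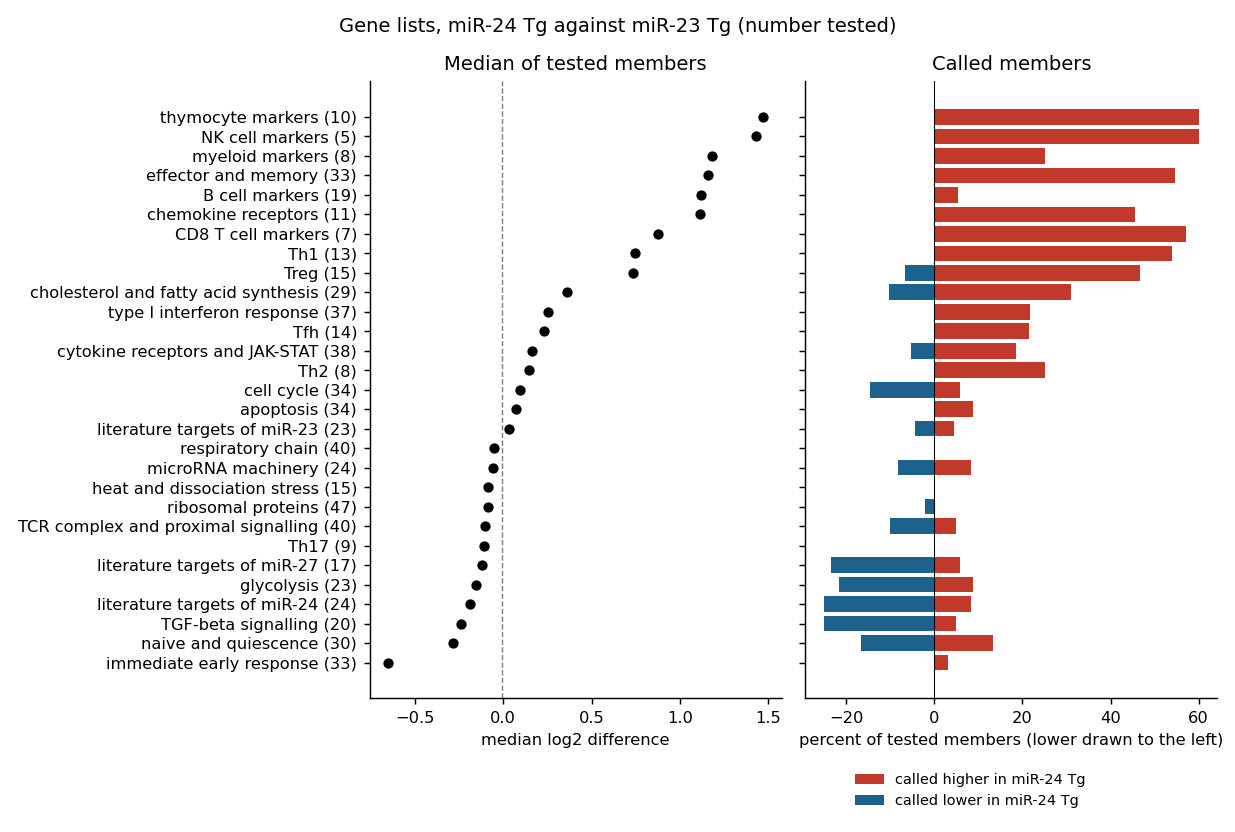
Gene lists with at least 5 tested members. Left, median log2 difference of the tested members, with the median over all genes as a dashed line; right, percent of tested members called higher (red) or lower (blue, drawn to the left) in miR-24 Tg. Effector and memory, Th1 and chemokine receptor genes were called higher only, and immediate early genes have the lowest median.

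Some markers of CD8 T cells, NK cells, thymocytes, myeloid cells, dendritic cells and gamma-delta or innate-like T cells were higher in miR-24 Tg. Those of B cells, neutrophils and the erythroid and platelet list mostly did not pass the test. B cell markers summed to 644, 197 and 243 RPKM in miR-24 Tg and 62.5, 103 and 169 in miR-23 Tg (WT 64.7 to 91.1), although of 19 tested only Cd72 was called (5.26%, against 9.84% of all genes higher; 31.1, 28.4 and 25.4 against 10.2, 9.35 and 9.79 RPKM). Neutrophil markers summed to 134, 26.4 and 3.09 against 0.795, 0.236 and 6.57 RPKM, with 0 of 2 tested members called by limma (1 at an unadjusted p under 0.05). CD8 T cell markers summed to 194, 177 and 192 against 101, 98 and 101 RPKM (WT 119 to 131), with 4 of 7 called higher, Cd8a (4.22, 4.85 and 2.90 against 0.258, 0.425 and 0.536 RPKM) and Cd8b1 (34.3, 41.6 and 26.8 against 7.69, 11.8 and 11.5 RPKM) included. NK cell markers summed to 153, 98 and 99 against 33.3, 34.3 and 35.6 RPKM with 3 of 5 called higher, and myeloid markers to 253, 208 and 190 against 147, 163 and 165 RPKM with 2 of 8 called. Cd8a and the NK receptor Klrk1 reached 1 RPKM in miR-24 Tg alone. Without such members 3 of 6 CD8 T cell, 2 of 3 NK cell and 5 of 9 thymocyte markers were called. Cd8a and Klrk1 also split as Mirlet7a-1 did. Among thymocyte markers Dntt was higher and 6 of 10 were called, but Rag2 was listed at 0 in all 6 libraries and Rag1 did not exceed 0.0266 RPKM. Of 4 dendritic cell markers tested 2 (50%) were called higher, Ccr9 and Tcf4. Of 4 gamma-delta and innate-like T cell markers 3 (75%) were called higher, Maf, Slamf1 and Cd1d1. With the columns averaged these counts were 2 and 1, where 1.93% of all genes were higher. Erythroid and platelet markers had 0 of 3 called by limma (0 at an unadjusted p under 0.05), with Pf4 and Ppbp listed at 0 in all 6. Nkg7, Klrd1, Klrk1 and Il2rb are both effector genes and CD8 T or NK cell markers here. The part of these cells in the effector, Th1 and Treg results was not tested. The CD8 T cell and NK cell sums were above those of miR-23 Tg in all 3 miR-24 Tg libraries, replicates 2 and 3 included.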

How the data were processed

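The authors deposited 1 table of RPKM values for 23953 gene rows in 18 libraries. The submitters' processing notes name STAR 2.2.0c, HOMER and build mm9. No source used here gives their roles, the gene models or whether strand was used, so genes that overlap or share reads with a paralog are uncertain. Relative depth, read from genes under 0.1 RPKM, ran from 0.973 to 1.30 of WT replicate 1 in the 6 libraries; the number of reads is unknown, so counting error has no interval. Dates stood in place of 27 gene symbols, and 2 symbols were repeated.

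Values were tested as log2(RPKM + 1) with limma (version 3.58.1, R version 4.3.3), using lmFit and trended eBayes on the 6 libraries with genotype as the only term, and were called at a Benjamini-Hochberg adjusted p under 0.05 over all 10482 genes. The fit was first tested on simulated data. Tables were made with Python 3.11.15 and pandas 2.3.3. Alternatives changed the libraries, pseudocount (0.1, 0.5), filter, scaling, variance model and replicates. Named genes were the 12 largest called differences of 1 direction with groups apart and 5 RPKM in the higher group (1 gene is not reported here), up to 4 called genes per list, the 6 largest per direction outside the other 15 libraries, literature targets, and the 3 largest with a seed match; further seed-match genes were chosen after their values were seen. The comparison and the gene lists were chosen with earlier results of these data known. Lists and seed matches are described by counts and medians, with no set test. UTRs come from GENCODE vM21 (GRCm38), not from the deposited build, for which no coordinates were used.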

Additional observations from a re-analysis of the deposited data

How the results depend on the processing

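No paired analysis was possible because 2 of the 3 miR-23 Tg columns share 1 header name, which leaves the groups 1 replicate number in common; the fit with a replicate block was not run. Depth is unknown, so what it limits cannot be given. Of 122 named genes, the direction was kept under every alternative that tested them except at Mir27a, which was not called and had a log2 difference of -0.33 without miR-24 Tg replicate 3. Calls were lost for 61 with columns 3 and 4 averaged, 39 with all 18 libraries, 7 after quantile normalisation and 0 after median-ratio scaling or with another pseudocount.

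The number of called genes, 1947 (1031 higher, 916 lower), became 786 (473, 313) with all 18 libraries, 3442 (1716, 1726) with 16, 341 (202, 139) with the columns averaged and, in a fit added after the data were seen, 3040 (1502, 1538) with 16 libraries and the columns averaged. It was 376 (226, 150) without miR-23 Tg column 3 and 275 (164, 111) without column 4, and 608 to 1938 (325 to 1005, 283 to 933) without 1 of the 4 numbered replicates, with 152 to 347 calls of 2-fold or more, against 115 without column 4. The 198 calls of 2-fold or more became 126 with the columns averaged, 357 with a pseudocount of 0.1 and 129 with a filter of 5 RPKM. The median over genes with a match, at a mean of 5 RPKM or more, was -0.097 for miR-24, -0.015 for miR-23 and -0.027 for miR-27; with no 7-base match to the other 2 seeds, a class added after the data were seen, it was -0.085, 0.025 and 0.034; with 7-base matches it was -0.019 for miR-27. Mir23a was -11.04 with the columns averaged (adjusted p = 0.0752), -11.01 without column 3 (0.0703), -11.07 without column 4 (0.0804) and -12.77 to -8.48 without 1 numbered replicate; Mir24-2 was 8.03 without column 3 (0.0196), 11.02 without column 4 (0.0599) and 9.72 to 11.60 without 1 numbered replicate. Mir27a ranged from -0.33 to 1.02. The cause of each change was not tested, beyond the smaller number of libraries where some were left out or averaged.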
